A study of Mus musculus with 4 samples.

Results

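Collagen VI is a beaded filament of the extracellular matrix, and the genes of its chains, *Col6a1* to *Col6a6*, and of its receptors *Cspg4*, *Antxr1* and *Antxr2* were examined in mouse embryonic fibroblasts (MEFs) with and without *Phf2*. These 9 genes were taken by symbol from the 24391 gene symbols of the count table, and all 9 had enough counts to be among the 13668 genes tested. They were selected on the *Phf2* KO against WT log2 differences of these same libraries, which were already known, so their values in that comparison are a description and carry no p-value.

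Phf2 reads the histone mark H3K4me3 at promoters, and the study asked whether its loss alters gene expression in resting MEFs. RNA-seq was made from 4 libraries, 2 per group. All 4 were primary MEFs from E13.5 embryos that carried the genotype *Phf2* flox/flox, ERCre/+, in which the Rosa26 locus expresses the CreERT2 recombinase, and all were made quiescent by confluence and low serum. The *Phf2* KO samples are labelled with tamoxifen and the WT samples with no treatment. The protocol text, worded alike for all samples, gives an arrest of 7 days in medium with 2% charcoal-treated serum, with 4-hydroxytamoxifen (4-OHT) at 0.5 µM. Loss of *Phf2*, active Cre and exposure to 4-OHT therefore cannot be told apart in these groups. The study's legends call the replicates biological, but the labels do not name the embryo or culture of each. The p-values below set a difference against the spread between these samples.

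The libraries held 21094743 to 26094268 counts, and values are given as normalized CPM, counts relative to the library total after scaling by edgeR's TMM factors (0.983 to 1.01). At this depth 3 counts corresponded to 0.116 to 0.145 CPM. *Phf2* itself had 3244 and 3680 counts in the WT libraries and 1454 and 2158 in the KO libraries, so its RNA was at 57.9% of WT and in the direction of the labels. Both replicates 1 were high in *Xist* (10042 counts in WT and 8336 in KO) and both replicates 2 in the Y-linked *Ddx3y* (1271 and 1295), each with 12 counts or fewer in the libraries of the other number. By these genes the replicate 1 cells were female and the replicate 2 cells male, so the numbers were not cultures of the same embryo. Whether the WT and KO samples of a number shared an embryo is not stated. The summed CPM of 8 fibroblast markers was 58722 and 65457 in WT and 55446 and 53966 in KO, and each of the other 8 cell type lists summed to 4073 CPM or less in every library.

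Collagen VI is built as a heterotrimer of α1, α2 and one longer chain, most often α3, and α4, α5 or α6 can take the place of α3. Trimers are assembled further inside the cell before they are secreted, and the filaments link cells and basement membranes to the surrounding matrix. Fibroblasts are a main source of collagen VI in muscle, skin and fat. Mutations in the genes of the α1, α2 and α3 chains cause Bethlem myopathy and Ullrich congenital muscular dystrophy. *Cspg4* (the proteoglycan NG2) binds collagen VI at the cell surface, and *Antxr1* and *Antxr2*, known as the anthrax toxin receptors, bind collagen VI and take it up.

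The 3 core chain genes *Col6a1*, *Col6a2* and *Col6a3* were lower in both *Phf2* KO libraries than in both WT libraries, and *Col6a3* had the lowest KO level relative to WT. *Col6a1*, the α1 chain present in every trimer, had 1373 and 1376 CPM in WT and 972 and 1018 CPM in KO. Its KO mean was 72.4% of the WT mean (995 ± 32.6 against 1375 ± 2.05 CPM, SD, n = 2), a log2 difference of -0.47 (SE 0.096). The WT values lay close together and both KO values were far below them.

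*Col6a2*, the α2 chain and the obligate partner of α1, had 1004 and 984 CPM in WT and 690.4 and 694 CPM in KO. Its KO mean was 69.7% of WT (692 ± 2.62 against 994 ± 14.3 CPM, SD, n = 2), a log2 difference of -0.52 (SE 0.091). As for *Col6a1*, the gap between the groups was many times the spread inside either group.

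*Col6a3* encodes the α3 chain, which completes the common trimer and is also the source of the cleaved C-terminal fragment endotrophin. It had 671 and 646 CPM in WT and 361 and 318 CPM in KO. The KO mean was 51.6% of WT (339.7 ± 30.5 against 659 ± 17.8 CPM, SD, n = 2), a log2 difference of -0.96 (SE 0.107). Relative to their mean, the KO libraries differed more from one another for this gene than for *Col6a1* and *Col6a2*, and still neither came near a WT value.

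Within each replicate number the same direction was seen. *Col6a1* in KO was at 70.8% of WT in replicate 1 (95% exact binomial interval 69.5 to 72.0%) and at 74.0% in replicate 2 (72.8 to 75.2%). *Col6a2* was at 68.8% (67.4 to 70.2%) and 70.6% (69.2 to 72.0%). *Col6a3* was at 53.8% (52.4 to 55.3%) and 49.2% (47.9 to 50.6%). These intervals cover counting error only, and for none of the 3 genes did they reach 100%. Because the choice of genes used this comparison, the intervals and the gaps between the groups describe these genes and are no test of them.

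**Figure D1:**
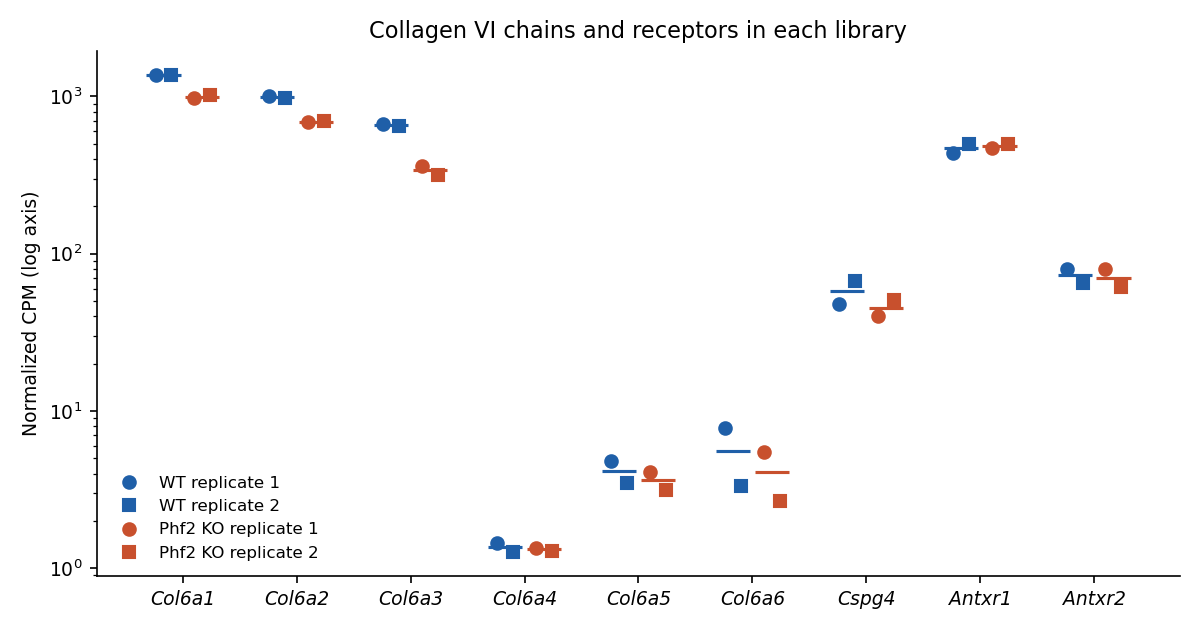
Normalized CPM (log axis) of the 9 genes in each of the 4 libraries, WT in blue and *Phf2* KO in orange, circles for replicate 1 and squares for replicate 2, with short lines at the group means. For *Col6a1*, *Col6a2* and *Col6a3* both KO points lie below both WT points, while the points of the other 6 genes overlap between the groups.

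Of the 9 genes, 3 had both KO libraries below both WT libraries, a pattern that 18% of the 13668 genes showed. By the quasi-likelihood test of edgeR, at a threshold of 0.1 on the p adjusted after Benjamini and Hochberg, the share of all genes called between *Phf2* KO and WT was 0.00732%, that is 1 gene, and it was none of the 9. At an unadjusted p under 0.05 the test held 4.21% of all genes, and 2.67% of all genes with a lower level in KO. *Col6a1*, *Col6a2* and *Col6a3* were among the latter. DESeq2, the tool the study used, called 0.41% of all genes as lower in KO, again with these 3 members, and limma-voom called 0 genes. With the replicate number as a further term, edgeR called 11% of all genes, and 5.2% as lower in KO, with 4 of the 9 genes. Because the choice of genes used this contrast, nothing is read from these counts about the 9 genes. The labels do not say that a replicate number pairs samples, so the calls between *Phf2* KO and WT below are from the fit without the replicate number.

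Over all 9 genes the median log2 difference was -0.34, with 8 values below 0 and 1 above, against a median of 0.01 over all genes tested, of which 6665 were below 0 and 7003 above. *Col6a3* stood at percentile 1.01 of the log2 differences of all genes, *Col6a2* at percentile 3.91 and *Col6a1* at percentile 4.75. Abundant genes varied less than scarce ones, as the plot of all genes shows. Among the 246 genes with a mean CPM at or above that of *Col6a3*, whose median was 0.03, *Col6a3* had the lowest log2 difference, *Col6a2* ranked 3 and *Col6a1* ranked 6 from the lowest. These ranks describe the members and are no test of them.

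**Figure D2:**
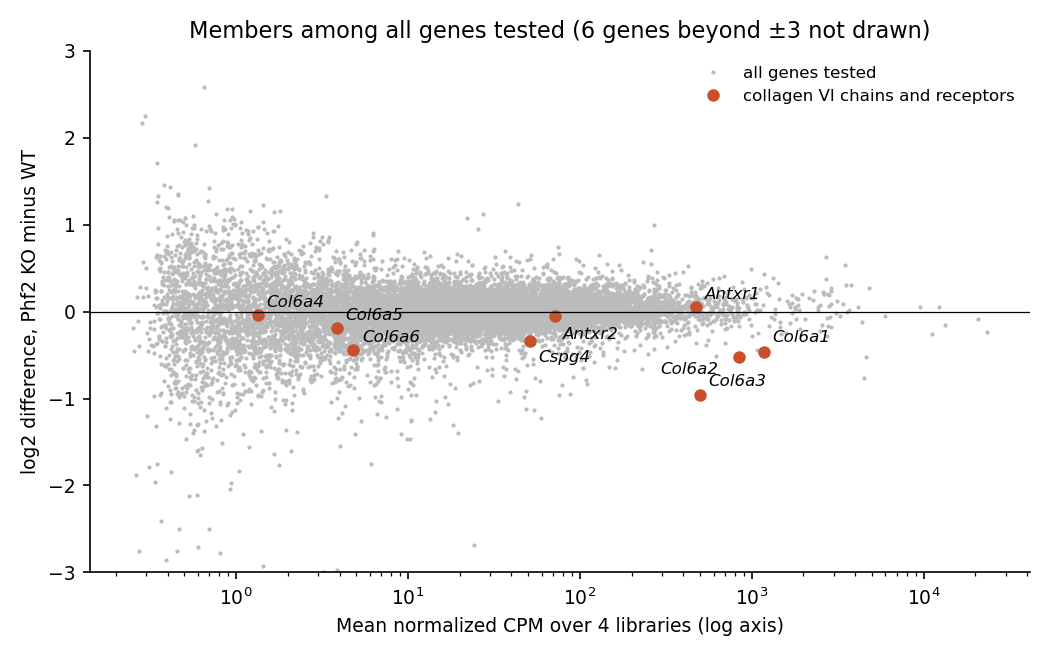
Log2 difference between *Phf2* KO and WT against the mean normalized CPM over the 4 libraries (log axis), with each gene tested as a grey point and the 9 collagen VI genes and receptors in orange. The 6 genes beyond 3 on the log2 scale are not drawn, and *Col6a3* at -0.96 lies at the lower edge of the abundant genes.

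The 3 core genes sit at separate places in the genome (build NCBIM37, the same as mm9). *Col6a1* (chr10:76171537-76188913, reverse strand, 35 exonic regions) and *Col6a2* (chr10:76058507-76086375, reverse strand, 29 exonic regions) are neighbours with a gap of 85162 bp, and *Col6a3* (chr1:92663435-92740529, reverse strand, 44 exonic regions) is on another chromosome. Since Phf2 is a reader of promoter chromatin, the stretches directly upstream of their annotated starts are shown, from RefSeq promoter windows (GRCm38.p6, with entries for 8 of the 9 genes, not *Antxr1*) found again base for base in NCBIM37. The *Col6a1* stretch is chr10:76188914-76189039, the 126 bases of its window that lie before the annotated start. The *Col6a2* stretch is chr10:76086376-76086625 and the *Col6a3* stretch is chr1:92740549-92740798, all read on the reverse strand, with capitals marking a motif match.
Col6a1: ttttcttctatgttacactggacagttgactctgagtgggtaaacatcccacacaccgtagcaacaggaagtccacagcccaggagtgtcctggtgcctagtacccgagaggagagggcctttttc
Col6a2: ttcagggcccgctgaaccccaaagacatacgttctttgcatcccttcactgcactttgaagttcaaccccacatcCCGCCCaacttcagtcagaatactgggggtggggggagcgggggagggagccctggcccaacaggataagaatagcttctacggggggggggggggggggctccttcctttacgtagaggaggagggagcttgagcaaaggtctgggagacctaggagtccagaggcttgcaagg
Col6a3: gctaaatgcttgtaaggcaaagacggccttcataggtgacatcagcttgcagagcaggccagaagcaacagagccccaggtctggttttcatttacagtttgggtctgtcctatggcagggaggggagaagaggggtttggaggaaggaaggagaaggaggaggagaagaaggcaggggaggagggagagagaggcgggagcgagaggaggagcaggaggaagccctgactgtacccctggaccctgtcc

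A search of both strands was made for the GC box GGGCGG, the TATA box TATAAA, the AP-1 motif TGANTCA and the AP-2 motif GCCNNNGGC, in the 250 bases before each RefSeq start. The *Col6a2* window shown held 1 GC box, in capitals above, where 32.7% of 32851 promoter windows of the same length held at least 1. The *Col6a1* window held no GC box and 1 AP-1 match in the part not printed, a motif in 6.75% of windows. The *Col6a3* window held none of the 4 motifs, of which TATAAA was in 12.4% of all windows and the AP-2 motif in 13.7%. No matches overlapped in these windows. The observed over expected CpG ratios of the windows shown were 0.170 for *Col6a1*, 0.281 for *Col6a2* and 0.172 for *Col6a3*, and 25.3%, 40.7% and 25.7% of all windows had a ratio at or below these. RefSeq gives *Col6a2* another start, whose window lies mostly inside the annotated gene and was not printed. That window held 3 GC boxes and had a CpG ratio of 0.606, at or above that of 66.5% of all windows.

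None of the genes next to the core chains was called between *Phf2* KO and WT. Only 0.00732% of all genes were, so this does not set the neighbours apart from other genes. *Pcbp3*, the RNA-binding protein gene 35689 bp from *Col6a1*, had 7.84 and 9.06 CPM in WT and 7.63 and 7.45 CPM in KO (log2 difference -0.17, SE 0.16). *Ftcd*, 5424 bp from *Col6a2*, had 6 counts or fewer in every library and was not tested. Beside *Col6a3*, the COP9 signalosome gene *Cops8* had a log2 difference of -0.10 (SE 0.078) and *Mlph*, which encodes melanophilin, one of -0.38 (SE 0.25). The adjusted p of *Pcbp3*, *Cops8* and *Mlph* was 0.999 each in edgeR's quasi-likelihood test.

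Since α1, α2 and α3 make up the common trimer, the chain transcripts were also set against one another per length, as normalized CPM per kb of exon. In WT the levels per kb were 313 for *Col6a1*, rank 90 of 12486 genes with a length, 119 for *Col6a2*, rank 334, and 55.1 for *Col6a3*, rank 854. In KO they were 226, 83.1 and 28.4. In both groups the order was *Col6a1* over *Col6a2* over *Col6a3*, with no overlap between the libraries of neighbouring genes in that order.

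The *Col6a2* to *Col6a1* ratio per length was 0.386 and 0.377 in WT and 0.375 and 0.360 in KO, so the KO mean was 96.3% of WT. Both KO values lay below both WT values, but the nearest of them were closer than the libraries within either group (0.381 ± 0.0060 in WT and 0.367 ± 0.011 in KO, SD, n = 2). The *Col6a3* to *Col6a1* ratio was 0.180 and 0.173 in WT and 0.137 and 0.115 in KO, a KO mean of 71.4% of WT. For this ratio too both KO libraries lay below both WT libraries, and here the gap between the groups exceeded the spread inside either group. The exon length enters every library alike, so the percentages do not depend on it, but the ratios themselves do. With 2 libraries against 2, an exact permutation test cannot reach 0.05, and none was made.

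**Figure D3:**
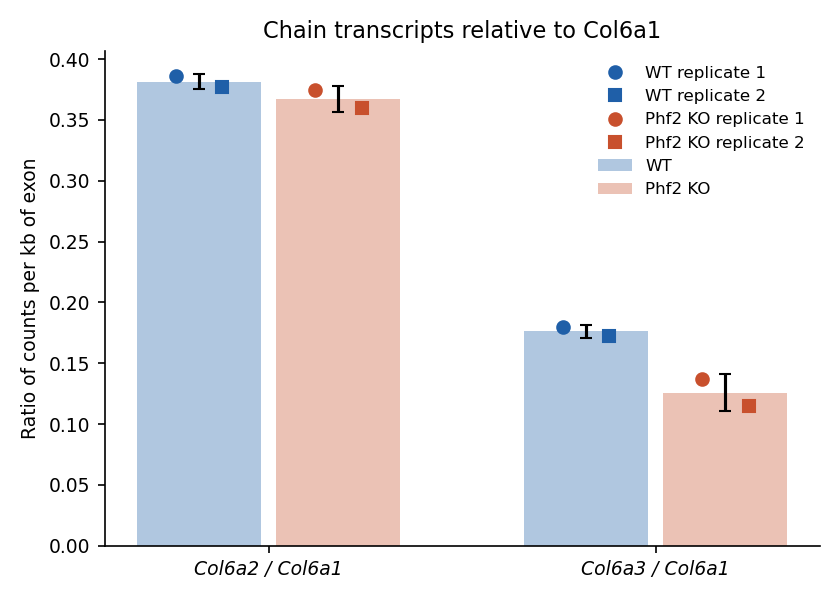
Ratio of counts per kb of exon of *Col6a2* and of *Col6a3* to *Col6a1*, as group means (bars, from 0) with SD and the value in each library (circles for replicate 1, squares for replicate 2). The *Col6a2* ratio stays between 0.360 and 0.386, and the *Col6a3* ratio is 0.173 or above in WT and 0.137 or below in KO.

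The 6 chain genes summed to 3062 and 3014 CPM in WT and 2034 and 2037 CPM in KO, a KO mean of 67.0% of WT. The summed chains took 0.310% and 0.300% of the library counts in WT and 0.200% and 0.206% in KO. Between 99.5% and 99.7% of this sum came from *Col6a1*, *Col6a2* and *Col6a3*. The share of *Col6a3* in the sum was 21.9% and 21.4% in WT and 17.8% and 15.6% in KO. In bulk RNA, fewer cells of a type and less RNA per cell cannot be told apart. The fibroblast markers were in part lower in KO as well, with 7 of 8 log2 differences below 0 and 0 called (0.00732% of all genes were). The summed CPM of 11 macrophage markers was higher in KO within both replicate numbers. It was 3560 in WT and 4073 in KO for replicate 1, and 779 and 1232 for replicate 2. Of these 11 markers, 3 had log2 differences below 0 and 0 were called. The part of either list in these values was not tested.

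The alternative long chains were barely expressed. *Col6a4*, *Col6a5* and *Col6a6*, which encode α4, α5 and α6, lie side by side on the reverse strand of chromosome 9 (chr9:105891785-105999114, chr9:105758400-105862974 and chr9:105591747-105730415), with gaps of 28811 and 27985 bp. In WT their levels were 0.160, 0.446 and 0.743 CPM per kb, against 55.1 for *Col6a3*. None of the 3 was therefore at a level near that of the chain they can replace, in either group.

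*Col6a4* had 35 and 33 counts in WT and 28 and 31 in KO, so the groups were within counting error of each other (KO at 97.0% of WT, log2 difference -0.04, SE 0.28). *Col6a5* had 116 and 90 counts in WT and 85 and 76 in KO (87.7%, log2 difference -0.19, SE 0.27). *Col6a6* had 187 and 87 counts in WT and 114 and 64 in KO (73.5%, log2 difference -0.45, SE 0.55). For *Col6a5* and *Col6a6* the higher KO library was above the lower WT library in CPM, and the libraries of one group differed as much as the groups. The *Col6a6* difference was 0.29 without WT replicate 1, -0.95 without WT replicate 2, -1.06 without replicate 1 of *Phf2* KO and -0.02 without its replicate 2, so its sign turned in a fit with unequal numbers of replicate 1 and 2 libraries. Within the replicate numbers *Col6a6* in KO was at 70.9% of WT (95% interval 55.7 to 90.0%) and 79.4% (56.6 to 110.9%). Leaving out each library in turn likewise took *Col6a4* from -0.15 to 0.07 and *Col6a5* from -0.42 to 0.08, with the values above 0 from the fits without WT replicate 1. *Col6a5* and *Col6a6* also share 322 stretches of 50 bases, the read length, which is 3.48% and 4.3% of those in each gene, and such reads could have been counted for either or for neither.

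**Figure D4:**
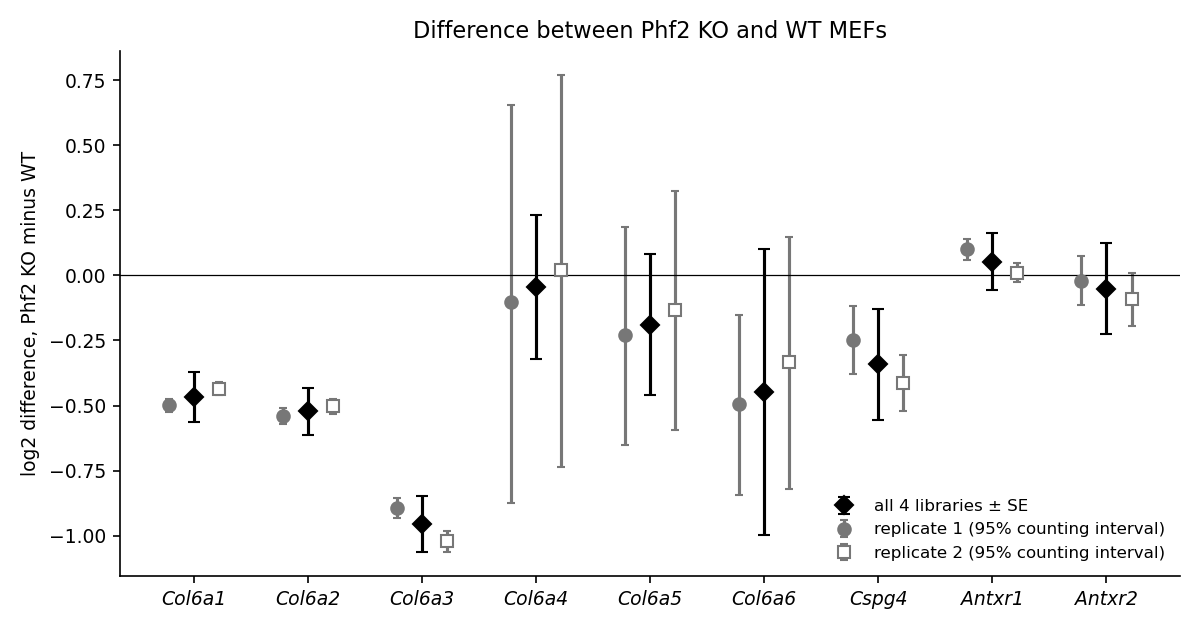
Log2 difference between *Phf2* KO and WT for each gene, from all 4 libraries (diamonds, ± SE) and within replicate 1 and replicate 2 (grey, with 95% counting intervals). *Col6a1*, *Col6a2* and *Col6a3* are below 0 in every form, the intervals of the scarce chains *Col6a4* and *Col6a5* cross 0, and *Antxr1* and *Antxr2* lie near 0.

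Among the receptors, the differences of *Antxr1* and *Antxr2* were smaller than their SE. *Antxr1* (chr6:87083848-87285769, reverse strand), a receptor known as TEM8 that links collagen to the actin cytoskeleton, had 438 and 497 CPM in WT and 469.9 and 501 CPM in KO. The KO mean was 103.8% of WT with a log2 difference of 0.05 (SE 0.11), and the values of the groups interleaved. *Antxr2* (chr5:98313707-98459981, reverse strand), the receptor CMG2 whose loss in people causes hyaline fibromatosis with collagen VI deposits, had 80.5 and 65.3 CPM in WT and 79.4 and 61.3 CPM in KO. Its KO mean was 96.5% of WT, a log2 difference of -0.05 (SE 0.17), again with overlapping groups. Leaving out each library in turn gave -0.02 to 0.13 for *Antxr1* and -0.25 to 0.12 for *Antxr2*. The sign of *Antxr1* turned without WT replicate 1, and that of *Antxr2* without WT replicate 1 and without *Phf2* KO replicate 2.

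*Cspg4* (chr9:56712911-56747677, forward strand), the NG2 proteoglycan of pericytes and other mesenchymal cells, had 47.8 and 67.3 CPM in WT and 40.3 and 50.6 CPM in KO. Its KO mean was 78.9% of WT (log2 difference -0.34, SE 0.21), and the higher KO library was above the lower WT library. Within the replicate numbers it was at 84.2% (95% interval 76.9 to 92.1%) and 75.1% (69.8 to 80.9%). The log2 difference was -0.09 without WT replicate 2, -0.19 without *Phf2* KO replicate 1, -0.52 without *Phf2* KO replicate 2 and -0.56 without WT replicate 1. Each of these fits holds unequal numbers of replicate 1 and 2 libraries, and *Cspg4* also differed by the replicate number, as given below. With all libraries and the replicate number as a further term, the difference was -0.33 (SE 0.088).

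Per kb of exon, *Antxr1* was at 86.6 CPM in WT, between *Col6a2* and *Col6a3*, followed by *Antxr2* at 19.4 and *Cspg4* at 7.15. Of the genes beside the receptors and the scarce chains, none was called, where 0.00732% of all genes were. *Pik3r4*, 1762 bp from *Col6a6*, had a log2 difference of -0.04 (SE 0.083), and *Snx33*, 17330 bp from *Cspg4*, one of 0.17 (SE 0.09). *Glyctk* beside *Col6a4* was at -0.22 (SE 0.22), *Prdm8* beside *Antxr2* at 0.26 (SE 0.31), and *D6Ertd527e* beside *Antxr1* at 0.15 (SE 0.40). *Odf3l1* beside *Cspg4* had 9 counts or fewer in each library, and *Gkn1* and *4930467D21Rik* had 0.

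The replicate numbers gave a comparison that the choice of genes did not use. Replicate 1 was tested against replicate 2 with the group as a term, with the same edgeR test and adjustment. The numbers also differed in sex and were not cultures of the same embryo, so number, sex and embryo cannot be told apart. These p-values set a difference against the spread left once group and number are fitted. They do not extend to other embryos or cultures. Of the 9 genes 3 were called, where 26.2% of all genes were, 2 of them higher in replicate 1 (13.6% of all genes) and 1 lower (12.6%). The share among the members was near that of all genes. Both replicate 1 libraries also had the higher summed CPM of 11 macrophage markers, 3560 in WT and 4073 in KO, against 779 and 1232 in replicate 2, and the part of this in the differences was not tested.

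*Col6a6* was higher in replicate 1 in both groups, by 1.14 on the log2 scale (SE 0.19, adjusted p = 5.54e-08). Its values were 7.76 CPM in WT and 5.50 CPM in KO for replicate 1 and 3.35 and 2.66 CPM for replicate 2. Neither replicate 2 library reached a replicate 1 value. *Antxr2* was also higher in replicate 1, by 0.34 (SE 0.084, adjusted p = 0.000632), with 80.5 and 79.4 CPM against 65.3 and 61.3 CPM.

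*Cspg4* was lower in replicate 1, with a log2 difference of -0.41 (SE 0.088, adjusted p = 3.31e-05), at 47.8 and 40.3 CPM against 67.3 and 50.6 CPM. Here the replicate 1 WT library was close to the replicate 2 KO library, and with the replicate number as the only term the adjusted p of *Cspg4* was 0.179. *Cspg4* marks pericytes, and the summed CPM of 10 pericyte and smooth muscle markers was likewise lower in replicate 1, at 1794 in WT and 2015 in KO against 2708 and 2520 in replicate 2. Of these 10 markers, 8 were lower in replicate 1 in both groups and 1 was higher, the desmin gene *Des*. Whether this bore on *Cspg4* was not tested. Leaving out a single library, which forces the group out of the fit, ended the call of *Cspg4* without *Phf2* KO replicate 1 (-0.30) and without WT replicate 2 (-0.19). It ended that of *Antxr2* without WT replicate 2 (0.39) and without *Phf2* KO replicate 2 (0.31), and that of *Col6a6* without WT replicate 1 (0.88).

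The core chains were not called between the replicate numbers with all 4 libraries. The log2 difference of replicate 1 from replicate 2 was -0.03 for *Col6a1* (SE 0.10, adjusted p = 0.87), 0.01 for *Col6a2* (SE 0.097, adjusted p = 0.963) and 0.12 for *Col6a3* (SE 0.092, adjusted p = 0.412). *Col6a4* at 0.13 (SE 0.30), *Col6a5* at 0.43 (SE 0.20) and *Antxr1* at -0.14 (SE 0.091) were not called either, with adjusted p values of 0.831, 0.122 and 0.318. Without WT replicate 2 and with the group out of the fit, *Col6a3* was called at 0.71 (adjusted p = 0.0363). A missed threshold does not show that these genes were alike in both replicates.

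**Figure D5:**
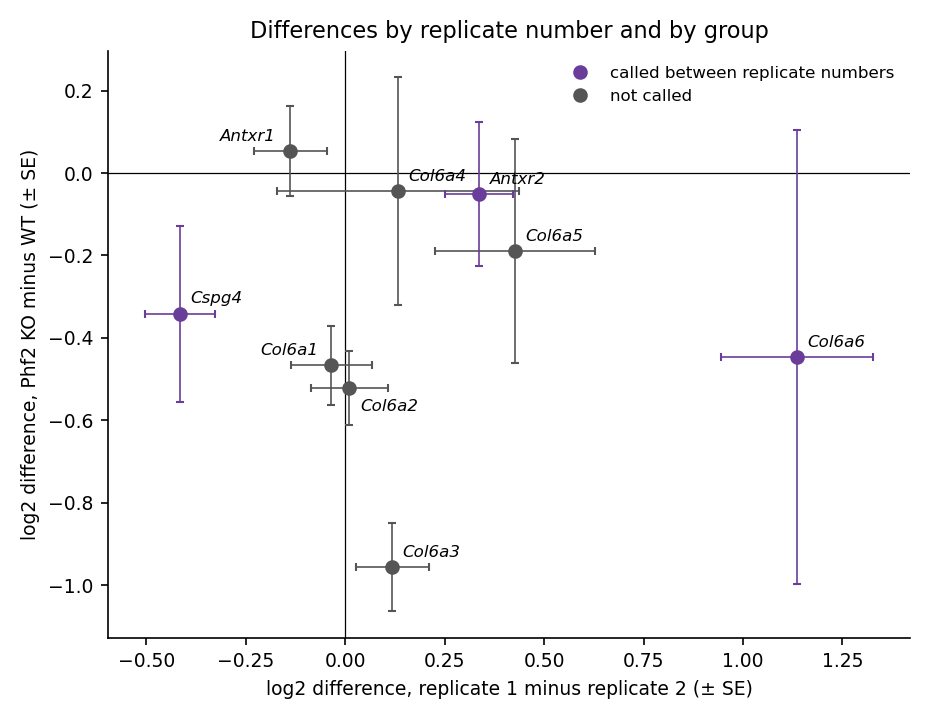
Log2 difference between *Phf2* KO and WT (± SE) against the log2 difference between replicate 1 and replicate 2 (± SE) for the 9 genes, with the 3 called between replicate numbers in purple. *Col6a1*, *Col6a2* and *Col6a3* lie low and near 0 on the horizontal axis, and *Col6a6* lies farthest to the right at 1.14.

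The 5 genes whose pattern over the 4 libraries was nearest to the mean of the 3 core chains were *Socs2*, *Ada*, *Fam180a*, *Gfpt2* and *Lonrf2*, by Euclidean distance of centred log2 CPM over the 11553 genes whose counts averaged 50 or more. Their distances were 0.041, 0.073, 0.078, 0.11 and 0.13 on the log2 scale. The core chains themselves lay farther from their mean, at 0.197 for *Col6a1*, 0.131 for *Col6a2* and 0.327 for *Col6a3*. *Socs2*, an inhibitor of cytokine signalling, had 5.68 and 5.67 CPM in WT and 3.62 and 3.66 CPM in KO, and *Ada*, adenosine deaminase, had 7.55 and 7.90 against 5.07 and 4.99 CPM. *Gfpt2*, an enzyme of the hexosamine pathway, had 6.31 and 5.74 against 4.01 and 3.62 CPM. All 5 were far less abundant than the core chains, and the match rests on 4 libraries. Of the other members with such counts, *Cspg4* was nearest at rank 2011, then *Col6a5* at 3331, *Antxr2* at 4870, *Antxr1* at 6431 and *Col6a6* at 10723.

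The matrix proteins that bind collagen VI were the first of 4 lists of related genes. Of 17 genes, 16 were tested (not *Matn1*), 0 were called in either direction between *Phf2* KO and WT, 5 log2 differences were above 0 and 11 below, and the median was -0.15 against 0.01 over all genes. As 0.00732% of all genes were called, a count of 0 in any of the 4 lists does not set its genes apart. *Matn2*, a matrilin that connects collagen VI to other matrix fibres, had 30.7 and 34.7 CPM in WT and 16.0 and 21.6 CPM in KO (log2 difference -0.80, SE 0.18). *Col14a1*, a collagen on the surface of fibrils, had 324 and 238 CPM in WT and 209.7 and 144 CPM in KO (-0.67, SE 0.24). For both, the KO libraries lay below the WT libraries, as for 18% of all genes tested, and the adjusted p was 0.999.

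At an unadjusted p under 0.05, 3 of the 16 would have passed, where 4.21% of all genes did, namely *Matn2*, *Col14a1* and the small proteoglycan gene *Lum*, named after its values were seen, which had 135 and 93.0 CPM in WT and 60.9 and 74.5 CPM in KO. Biglycan (*Bgn*) and decorin (*Dcn*), the proteoglycans that tether collagen VI to other collagens, had log2 differences of -0.05 (SE 0.18) and -0.25 (SE 0.14). *Col4a2*, a basement membrane collagen, had the highest difference of the list at 0.27 (SE 0.14), with 2374 and 2892 CPM in WT and 3203 and 3140 CPM in KO. *Matn4* differed by the replicate number (log2 difference of replicate 1 from replicate 2 of -0.88, adjusted p = 1.29e-21) far more than by the group (-0.20, SE 0.42). The fit by group leaves out the replicate number, so its SE takes in the difference between the numbers. The same holds for *Itgb3*, *Sdcbp* and *Lgals3* below.

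Of the 10 other collagen receptors of the cell surface, 9 were tested (not *Itga2*), 0 were called, 7 log2 differences were above 0 and 2 below, and the median was 0.10. *Itga10* and *Itga1*, subunits of collagen-binding integrins, had log2 differences of 0.40 (SE 0.35) and 0.31 (SE 0.18), and in both the groups overlapped. Within replicates 1 and 2, KO was at 166% and 114% of WT for *Itga10* and at 128% and 121% for *Itga1*. Both were lower in replicate 1 in edgeR's test, by -0.62 (adjusted p = 0.000191) and -0.34 (adjusted p = 0.00107). *Itgav*, a subunit of integrins for matrix ligands with an RGD motif, had the lowest value at -0.06 (SE 0.084). The kinase receptors for collagen *Ddr1* and *Ddr2* were at 0.29 (SE 0.11) and -0.05 (SE 0.11). *Itgb3* was at 0.09 between the groups (SE 0.62) and at -0.58 without *Phf2* KO replicate 1, and it was higher in replicate 1 than in replicate 2 by 1.33 (SE 0.09, adjusted p = 1.16e-47).

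The enzymes and chaperones that modify, fold and cleave collagen were 19 genes, of which 18 were tested (not *Colgalt2*) and 0 called, with 10 log2 differences above 0, 8 below and a median of 0.03. *Plod2*, a lysyl hydroxylase that sets collagen crosslinks, had 192 and 202 CPM in WT and 104 and 147 CPM in KO (-0.65, SE 0.18). The prolyl hydroxylase subunit *P4ha3*, named after its values were seen, had 47.8 and 58.3 CPM in WT and 34.9 and 41.6 CPM in KO (-0.47, SE 0.15). These were the 2 of 18 genes of the list with an unadjusted p under 0.05 (4.21% of all genes), and both had an adjusted p of 0.999. *Ppib*, the cyclophilin B of the procollagen folding complex, had the highest value at 0.31 (SE 0.15), and the collagen chaperone *Serpinh1* was at -0.05 (SE 0.13). *Bmp1*, a protease that trims procollagens, was at 0.18 (SE 0.18) and lower in replicate 1 by a log2 difference of -0.34 (adjusted p = 0.00159).

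Of the 10 partners of the 3 receptors, all were tested, 0 were called, 5 log2 differences were above 0 and 5 below, and the median was 0.00. *Lrp6*, a Wnt coreceptor that interacts with the anthrax toxin receptors, had 239 and 226 CPM in WT and 191 and 191 CPM in KO (-0.29, SE 0.084) and was the 1 gene of 10 with an unadjusted p under 0.05 (4.21% of all genes). *Grip1*, a scaffold that binds *Cspg4*, had the highest difference at 0.66 (SE 0.61) from 17 to 68 counts per library. *Sdcbp*, the scaffold syntenin that also binds *Cspg4*, was at 0.05 (SE 0.29), and at -0.28 without WT replicate 2. Galectin 3 (*Lgals3*), a ligand of *Cspg4* that macrophages make in quantity, was at 0.14 between the groups (SE 0.82), and at -0.87 without *Phf2* KO replicate 1. Between the replicate numbers *Sdcbp* and *Lgals3* were higher in replicate 1 by 0.60 (adjusted p = 1.49e-11) and 1.79 (adjusted p = 1.54e-69). The platelet-derived growth factor receptors, whose signal *Cspg4* modulates, were at -0.04 (*Pdgfra*, SE 0.10) and 0.10 (*Pdgfrb*, SE 0.16).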

How the data were processed

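RNA was sequenced as 50 base single reads. Per the paper's methods, the authors used Trim Galore for trimming and bowtie2 to take out rRNA, then mapped to mm9 with STAR (reverse stranded) and assigned reads to genes with featureCounts, whose raw counts they deposited. Tool versions and the annotation release are not given in the sources used here. The deposited DESeq2 table, with the authors' fold changes and p-values, was not used.

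All 4 count columns were used. Genes were kept by edgeR's filterByExpr by group, scaled by TMM and fitted with glmQLFit and glmQLFTest (edgeR 4.0.16, R 4.3.3), with the group as the only term, or with the group and the replicate number for the comparison of replicate numbers. P-values were adjusted by Benjamini and Hochberg over all 13668 genes and called at 0.1. DESeq2 1.42.0, limma-voom (limma 3.58.1), other scalings and filters, a threshold of 0.05, a replicate block and the omission of each library were alternatives. Scripts were tested on simulated counts. Levels per kb used the union of exons in GENCODE's NCBIM37 annotation.

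The 9 genes, the 4 lists and the marker lists were chosen with earlier results of these data known. Named genes were the 9 members, *Phf2*, their chromosomal neighbours, the 5 genes of nearest pattern and up to 4 genes a list, namely those called in either comparison and the largest difference in each direction. Others were added as examples of their list. SD is between the libraries of a group, 2 per group. SE is the size of the log2 difference over the square root of edgeR's F statistic. In that fit the spread of each gene is moderated by that of all genes.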

Additional observations from a re-analysis of the deposited data

Results flagged for a closer look

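*Mmp2*, a gelatinase listed with the collagen cleaving enzymes, moved in opposite directions within the replicate numbers: its level in *Phf2* KO was 105% of WT in replicate 1 and 94.9% in replicate 2. The difference between these values was not tested. Opposite directions were not particular to *Mmp2*: *Fbln2* was at 121% and 90.1% and *Itga11* at 115% and 90.0%. *Mmp2* was also lower in replicate 1 than in replicate 2 (log2 difference -0.51, adjusted p = 2.71e-05 in edgeR's test).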

How the results depend on the processing

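Between *Phf2* KO and WT, the count of all genes called was 66 with DESeq2, 0 with limma-voom (575 at an unadjusted p under 0.05), 0 at an adjusted p under 0.05 and 0 to 0 when each library was left out in turn, against 1. DESeq2 called 0.41% of all genes as lower in KO, with 3 of the 9 genes among them (*Col6a1*, *Col6a2* and *Col6a3*). The 9 genes were chosen on this contrast, so nothing is read from such calls about them. Without each library in turn, the log2 difference ranged from -0.50 to -0.43 for *Col6a1*, -0.55 to -0.49 for *Col6a2* and -1.05 to -0.87 for *Col6a3*.

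The labels do not say that a replicate number pairs the samples. The differences between replicates 1 and 2 in WT and in KO correlated across 11556 genes at r = 0.854, a hint from the data and not from the design, and genes are not independent replicates. With a replicate block edgeR called 1500 genes (789 higher and 711 lower in KO, 11% of those tested), with 4 of the 9 members among the lower (5.2% of all genes), namely *Col6a1*, *Col6a2*, *Col6a3* and *Cspg4*. Here too the choice of the 9 genes used the contrast, and nothing is read from these calls about them. The block called 3 of 16 matrix partners, all lower in KO, and 3 of 9 other receptors, all higher. It also called 4 of 18 biosynthesis and cleavage genes (2 higher and 2 lower) and 2 of 10 receptor partners (1 higher and 1 lower).

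Between replicate numbers, DESeq2 called 1380 genes, the number as the only term 1445 and fits without 1 library 1114 to 1521, with 2 to 2 members, which were not the same in each (*Col6a3* among them without WT replicate 2), against 3580 and 3. *Cspg4* was at -0.42 (adjusted p = 0.179) with the number as the only term. The fits without 1 library leave the group out. Without each library in turn *Col6a1* ranged from -0.29 to 0.21, *Col6a2* from -0.27 to 0.30, *Col6a3* from -0.41 to 0.71, *Col6a6* from 0.88 to 1.36, *Cspg4* from -0.59 to -0.19 and *Antxr2* from 0.31 to 0.39. For the difference between *Phf2* KO and WT the same omissions gave -0.65 to 0.35 for *Matn4*, -0.12 to 0.0022 for *Itgav*, -0.58 to 1.07 for *Itgb3*, -0.26 to 0.29 for *Mmp2*, -0.87 to 1.46 for *Lgals3* and -0.28 to 0.46 for *Sdcbp*. With the longest transcript as the length, the WT ratios were 0.603 for *Col6a2* and 0.218 for *Col6a3* to *Col6a1*, against 0.381 and 0.176. Where no construction is named, the cause was not tested. Depths of 187 counts or fewer per library limit what can be said of *Col6a4*, *Col6a5* and *Col6a6*.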
